A study of Mus musculus with 24 samples.

Results

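The 6 protein-coding Dlx homeobox genes, Dlx1 to Dlx6, and the antisense transcript Dlx6os1 were taken by symbol from a table of read counts for 56748 mouse genes, so that the set held 7 genes. RNA had been sequenced in bulk from the mesenchyme of the lower first molar germ of wild-type ICR mouse embryos, with no transgene or drug in any of the groups. Germs were taken at the cap stage (embryonic day 13) or the bell stage (embryonic day 15), and each of the 8 groups had 3 libraries. Cap-W and Bell-W were mesenchyme of the undivided germ, Cap-L and Cap-B the lingual (tongue-side) and buccal (cheek-side) parts at the cap stage, Bell-L and Bell-B those parts of the bell-stage germ, while Cap-L + 2D was the lingual and Cap-B + 2D the buccal cap-stage part kept for 2 days in vitro. The parts were cut by hand with a needle and the epithelium was removed with dispase II, so each library is a mixture of the cells in a dissected piece of tissue, in which fewer cells of a type and less RNA per cell cannot be told apart. The study's methods take the embryos from several mothers, but describe the libraries both as triplicates and as a pair of biological replicates, and tie no library to a mother. The errors, n and p-values here therefore count libraries, and their spread may be technical.

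Dlx genes encode homeodomain transcription factors related to Distal-less of the fly. In vertebrates they lie in pairs of neighbouring genes that point at each other, and in the pharyngeal arches they are expressed in a nested order along the upper-to-lower axis of the jaws. Dlx1 and Dlx2 are expressed in both jaws, Dlx5 and Dlx6 are largely restricted to the lower jaw, where endothelin signalling through Ednra raises them, and Dlx3 and Dlx4 occupy the region furthest from the upper jaw. Mice that lack both Dlx1 and Dlx2 lose their upper molars but keep the lower ones, and mutations of human DLX3 affect hair, teeth and bone. Dlx2 and Dlx3 are also expressed in dental epithelium. Dlx6os1, also called Evf, is a long noncoding RNA known from the forebrain, where it acts on the nearby Dlx5 and Dlx6 genes.

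In the GRCm39 annotation each pair was convergent. Dlx1 (chr2:71358457-71364325, + strand) and Dlx2 (chr2:71373752-71377098, - strand) were 9426 bases apart, Dlx3 (chr11:95010945-95016122, +) and Dlx4 (chr11:95031273-95037089, -) were 15150 bases apart, and Dlx6 (chr6:6863334-6868568, +) and Dlx5 (chr6:6877805-6882085, -) were 9236 bases apart. Dlx6os1 (chr6:6749740-6871632, -) spanned the whole of Dlx6 on the other strand but shared no exon base with it. The reads were counted without regard to strand and a read touching exons of 2 genes was left out. This matters for Dlx1, 43.3% of whose exon bases are shared with the opposite-strand Dlx1as, while the shared part was 2.42% for Dlx4, 4.38% for Dlx6 and 6.58% for Dlx6os1. Levels are given as CPM, each gene's counts scaled to a library total of 1000000, after TMM scaling over all 24 libraries, and genes are compared with each other only as CPM per kb of exon that no other gene shares.

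RefSeq starts were available in the promoter table used here for Dlx1, Dlx2 and Dlx6os1, the last with 2 starts. Their 250 bases before the start (RefSeq, GRCm38.p6, a different build from the coordinates above, printed 5' to 3' in the direction of transcription) are shown to set the starts of the antisense RNA beside those of a coding pair. Capitals mark TAATTA, the palindromic core that many homeodomain proteins bind, which reads the same on both strands.
Dlx1 (chr2:71529195-71529444, + strand): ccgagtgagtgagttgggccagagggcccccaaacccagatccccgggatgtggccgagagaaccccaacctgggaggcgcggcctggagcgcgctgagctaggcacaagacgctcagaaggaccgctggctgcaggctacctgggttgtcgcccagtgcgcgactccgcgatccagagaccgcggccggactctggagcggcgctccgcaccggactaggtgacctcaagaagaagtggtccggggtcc
Dlx2 (chr2:71546755-71547004, - strand): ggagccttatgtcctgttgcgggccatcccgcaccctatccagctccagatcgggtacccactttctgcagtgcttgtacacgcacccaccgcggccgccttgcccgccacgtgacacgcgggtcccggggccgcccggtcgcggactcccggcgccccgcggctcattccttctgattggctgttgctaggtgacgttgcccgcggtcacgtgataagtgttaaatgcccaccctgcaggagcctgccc
Dlx6os1, first start (chr6:6869534-6869783, - strand): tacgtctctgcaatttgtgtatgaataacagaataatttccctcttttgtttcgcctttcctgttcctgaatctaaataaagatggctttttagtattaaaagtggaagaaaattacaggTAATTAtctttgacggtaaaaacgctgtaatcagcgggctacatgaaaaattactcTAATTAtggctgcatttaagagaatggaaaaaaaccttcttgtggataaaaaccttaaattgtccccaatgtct
Dlx6os1, second start (chr6:6861684-6861933, - strand): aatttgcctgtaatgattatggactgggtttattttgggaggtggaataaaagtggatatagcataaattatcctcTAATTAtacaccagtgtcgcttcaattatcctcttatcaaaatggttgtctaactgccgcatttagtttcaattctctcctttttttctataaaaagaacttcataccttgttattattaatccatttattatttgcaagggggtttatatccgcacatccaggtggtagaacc
The windows of Dlx1 and Dlx2 were GC-rich, with 68.0% and 66.4% G or C and 22 and 24 CpG dinucleotides, against a median of 52.4% and 6 over the 32851 windows of this length in the table. The windows before the starts of Dlx6os1 were AT-rich, with 33.2% and 34.0% G or C and 5 and 3 CpG dinucleotides. TAATTA occurred 2 times in the first of them and 1 time in the other, and these letters were not in the Dlx1 and Dlx2 windows. Of all windows in the table, 4.84% held TAATTA. Most of these were richer in G and C: only 3.175% and 3.872% of all windows had less than the first and second Dlx6os1 windows. The share holding TAATTA among windows as AT-rich as these was not computed. A match is a description of the letters and does not show binding.

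Libraries held 20581720 to 39266497 counted reads, and each of Dlx1, Dlx2, Dlx5 and Dlx6 had at least 257 reads in every library. Dlx4 had as few as 3. Among the undivided libraries, 2 stood apart from the others of their groups: Cap-W replicate 1, and Bell-W replicate 3, in which 10 epithelial genes summed to 2679 CPM against 725 and 642 in the other Bell-W libraries. The mean chi-square per gene between the counts of 2 libraries of a group was 162 and 212 for Cap-W replicate 1. For Bell-W replicate 3 it was 70.3 and 79.3. Within the groups of divided parts it was 1.37 to 12.2, with 9.24 and 12.2 for Cap-L replicate 2. Between Cap-W replicates 2 and 3 it was 9.88, and between Bell-W replicates 1 and 2 it was 16.1. The dental mesenchyme genes Pax9, Msx1, Barx1, Lhx6, Lhx8, Prrx1 and Twist1 were detected in every group and summed to 1872 to 3791 CPM.

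Dlx1 was among the more abundant members, and it was lower after culture. It was counted at 102, 102 and 98.2 CPM in Cap-L and at 99.2, 96.0 and 94.0 CPM in Cap-B, ranges that overlap. After culture it was at 51.6, 53.5 and 50.7 CPM in Cap-L + 2D and at 59.5, 54.6 and 56.7 CPM in Cap-B + 2D, below every uncultured library. The log2 fold change from the cap stage to culture was -0.95 ± 0.05 (SE) in the lingual part (edgeR adjusted p = 1.8e-15) and -0.78 ± 0.04 in the buccal part (adjusted p = 3.3e-18). At the bell stage it stood between these levels, at 75.4, 81.5 and 80.2 CPM in Bell-L and 88.5, 87.4 and 88.3 CPM in Bell-B. Undivided libraries spread widely, at 142, 90.3 and 101 CPM in Cap-W and 101, 111 and 77.3 CPM in Bell-W. Ordered by mean level, Cap-W, Cap-L, Bell-W and Cap-B came first with overlapping ranges, followed by Bell-B, Bell-L, Cap-B + 2D and Cap-L + 2D, whose ranges did not overlap each other. Those of Bell-B and Bell-L overlapped the wide range of Bell-W.

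Dlx2, the convergent neighbour of Dlx1, differed between the sides at the cap stage, where Dlx1 was at -0.04 ± 0.04 (log2 buccal over lingual, adjusted p = 0.47). It was at 77.1, 82.8 and 79.5 CPM in Cap-L and 58.4, 56.7 and 59.0 CPM in Cap-B, with no overlap. Its buccal-over-lingual log2 fold change at the cap stage was -0.44 ± 0.05 (adjusted p = 3.3e-07), which passes the test but not the fold limit of 0.5 used for a call. In culture the lingual part kept 89.8, 84.6 and 78.6 CPM while the buccal part had 42.2, 41.1 and 43.4 CPM, the lowest levels of Dlx2 in the series. The log2 fold change between the cultured sides was -1.001 ± 0.049 (adjusted p = 3.0e-15). The sides overlapped at the bell stage, at 75.8 to 79.9 CPM in Bell-L and 79.4 to 84.9 CPM in Bell-B. Bell-W held 80.3, 100.1 and 130.2 CPM, the highest in the library with the high epithelial genes. By mean level, Bell-W, Cap-W, Cap-L + 2D, Bell-B, Cap-L and Bell-L each overlapped the next group, and Cap-B and then Cap-B + 2D lay below them without overlap.

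The ratio within the pair differed between groups. Per kb of unshared exon, Dlx1 over Dlx2 was 1.18 ± 0.05 (SD, n = 3) in Cap-L and 1.55 ± 0.06 in Cap-B. It was 0.577 ± 0.035 in Cap-L + 2D and 1.26 ± 0.05 in Cap-B + 2D. Bell-L and Bell-B had 0.945 ± 0.056 and 1.00 ± 0.03. The ranges of Cap-L + 2D, 0.537 to 0.603, lay below those of every other group except Bell-W, where replicate 3 was at 0.555. Dlx1as, which overlaps Dlx1, rose between the stages, where Dlx1 was at -0.35 ± 0.04 (adjusted p = 4.5e-07) in the lingual and -0.14 ± 0.04 (adjusted p = 0.0024) in the buccal part. Dlx1as went from 17.4 ± 1.1 CPM in Cap-L to 30.0 ± 0.8 in Bell-L (log2 fold change 0.80 ± 0.06, adjusted p = 7.4e-11) and from 22.5 ± 1.2 CPM in Cap-B to 39.8 ± 0.5 in Bell-B (0.81 ± 0.05, adjusted p = 2.2e-14). Reads of Dlx1 and Dlx1as cannot be told apart by strand where they overlap, and these counts come from the bases they do not share.

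**Figure D1:**
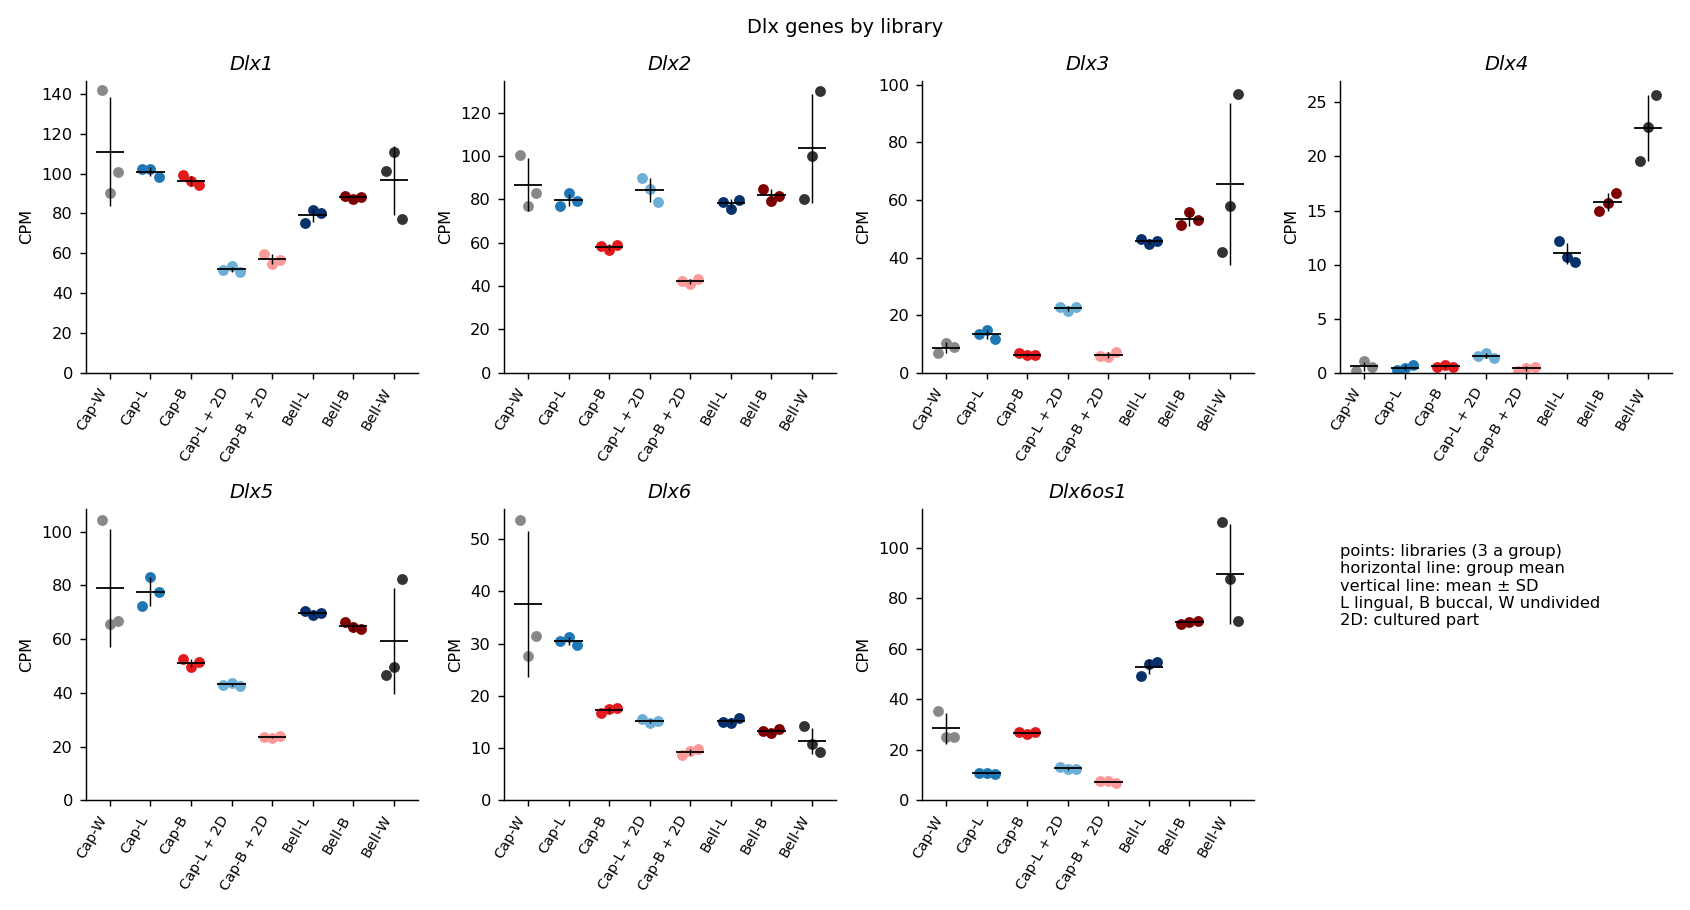
CPM (linear axes from 0) of the 7 genes in each of the 24 libraries by group, with the group mean and SD as lines. Dlx3, Dlx4 and Dlx6os1 are highest in the bell-stage groups, Dlx6 is highest in Cap-W and Cap-L, and Dlx1 is lowest in the cultured groups.

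Dlx3 and Dlx4 rose from the cap to the bell stage in the undivided germ and in both parts. Dlx3, which acts in the ectoderm, teeth and bone, was at 13.5, 14.9 and 11.7 CPM in Cap-L and 6.82, 6.03 and 6.11 CPM in Cap-B. At the bell stage it was at 46.4, 44.8 and 45.7 CPM in Bell-L and 51.3, 56.0 and 53.0 CPM in Bell-B, above every cap-stage library. The log2 fold change was 1.77 ± 0.07 in the lingual part (adjusted p = 5.1e-17) and 3.07 ± 0.08 in the buccal part (adjusted p = 7.1e-26). In the undivided germ it went from 6.74, 10.5 and 9.04 CPM to 42.1, 58.0 and 96.7 CPM, a log2 fold change of 2.88 ± 0.33 (adjusted p = 0.0016). Without Cap-W replicate 1 and Bell-W replicate 3, a setting chosen after seeing the data, it was 2.34 (adjusted p = 9.7e-05).

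The side on which Dlx3 was higher changed with the stage. At the cap stage the lingual part had more (buccal-over-lingual log2 fold change -1.06 ± 0.10, adjusted p = 7.1e-08) and at the bell stage the buccal part had slightly more (0.23 ± 0.04, adjusted p = 2.4e-05, under the fold limit). The difference of these differences was 1.29 ± 0.10 (adjusted p = 3.1e-11). Cultured lingual libraries had 22.7, 21.3 and 22.9 CPM and cultured buccal libraries 5.66, 5.30 and 7.35 CPM, so that the side difference in culture was -1.88 ± 0.09 (adjusted p = 1.2e-15). From the cap stage to culture Dlx3 rose in the lingual part (0.74 ± 0.07, adjusted p = 1.7e-09), while the buccal difference was -0.07 ± 0.11 (adjusted p = 0.60). Both cultured parts stayed below the bell-stage parts. By mean level the order was Bell-W and Bell-B, which overlapped, then Bell-L, which did not overlap Bell-B but lay within the range of Bell-W, then Cap-L + 2D and Cap-L, each separate, and then Cap-W, Cap-B and Cap-B + 2D, each overlapping the next.

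By mean CPM per kb of unshared exon, Dlx4 was the least abundant member in every group except Bell-W. In Bell-W, Dlx4 was above Dlx6, at 7.10 against 5.02 CPM per kb. It had 0.251, 0.473 and 0.707 CPM in Cap-L, 0.497, 0.754 and 0.545 CPM in Cap-B and 0.167, 1.05 and 0.537 CPM in Cap-W, which at this depth were 3 to 32 reads a library. At the bell stage it had 12.1, 10.7 and 10.3 CPM in Bell-L, 14.9, 15.7 and 16.6 CPM in Bell-B and 19.6, 22.7 and 25.7 CPM in Bell-W. No bell-stage library overlapped a cap-stage library. The log2 fold changes were 4.53 ± 0.18 in the lingual part (adjusted p = 7.6e-17), 4.70 ± 0.16 in the buccal part (adjusted p = 2.5e-22) and 5.14 ± 0.46 in the undivided germ (adjusted p = 6.8e-04). The last moved to 5.92 without Cap-W replicate 2, the cap-stage library with the most Dlx4, and to 4.66 without Cap-W replicate 1 and Bell-W replicate 3. After culture, lingual libraries had 1.52, 1.86 and 1.38 CPM and buccal ones 0.165, 0.453 and 0.570 CPM, a log2 side difference of -2.04 ± 0.29 (adjusted p = 1.6e-06). Bell-W, Bell-B, Bell-L and Cap-L + 2D followed each other without overlap, and the other 4 groups overlapped in turn. Dlx4os, an overlapping noncoding RNA on the other strand, was at 0 to 0.403 CPM in the cap-stage libraries and rose to 4.52 to 4.65 CPM in Bell-L and 6.66 to 7.16 CPM in Bell-B (adjusted p = 4.0e-15 and 1.1e-18).

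Dlx5 and Dlx6, the lower-jaw pair, were higher lingually than buccally in the cap-stage germ and after culture. Dlx5 was at 72.3, 83.1 and 77.6 CPM in Cap-L and 52.7, 49.6 and 51.4 CPM in Cap-B. Its buccal-over-lingual log2 fold change was -0.58 ± 0.05 (adjusted p = 4.8e-08). In culture it was at 43.1, 43.6 and 42.8 CPM on the lingual and 23.7, 23.2 and 23.8 CPM on the buccal side, a difference of -0.88 ± 0.05 (adjusted p = 5.8e-14). It was lower after culture than at the cap stage in both parts, by -0.84 ± 0.05 (adjusted p = 1.2e-13) and -1.14 ± 0.05 (adjusted p = 9.1e-21). At the bell stage it was at 70.6, 68.9 and 69.8 CPM in Bell-L and 66.3, 64.6 and 63.7 CPM in Bell-B. Its stage differences, -0.15 ± 0.05 (adjusted p = 0.012) in the lingual and 0.33 ± 0.04 (adjusted p = 3.0e-08) in the buccal part, were under the fold limit. The undivided groups overlapped, with 104.5, 65.8 and 66.8 CPM in Cap-W and 46.7, 49.6 and 82.2 CPM in Bell-W, and their difference of -0.41 ± 0.26 had an adjusted p of 0.34. Without Cap-W replicate 1 and Bell-W replicate 3 it was -0.47 (adjusted p = 0.0032). By mean level, Cap-W and Cap-L overlapped, Bell-L followed, then Bell-B, Bell-W and Cap-B, each overlapping the next, with Bell-L inside the ranges of both undivided groups and Bell-B overlapping both, and the cultured parts were lowest and separate, the buccal below the lingual.

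Dlx6 was lower at the bell stage than at the cap stage in the lingual part and the undivided germ. It was at 30.5, 31.4 and 29.6 CPM in Cap-L, 16.7, 17.4 and 17.7 CPM in Cap-B, 15.0, 14.7 and 15.8 CPM in Bell-L and 13.3, 12.9 and 13.8 CPM in Bell-B. The log2 fold change from cap to bell was -0.997 ± 0.060 in the lingual part (adjusted p = 5.2e-13), -0.39 ± 0.07 in the buccal part (adjusted p = 1.3e-05, under the fold limit) and -1.72 ± 0.27 in the undivided germ (adjusted p = 0.0053), where it was 53.6, 27.6 and 31.5 CPM in Cap-W and 14.2, 10.8 and 9.25 CPM in Bell-W. Without Cap-W replicate 1 and Bell-W replicate 3 the last was -1.24 (adjusted p = 9.1e-04). In the order of mean levels, Cap-W overlapped Cap-L, Cap-L + 2D overlapped Bell-L, and Bell-B, Bell-W and Cap-B + 2D overlapped in turn, while Cap-B stood alone between the first and second of these sets. The side difference was -0.80 ± 0.06 at the cap stage (adjusted p = 2.9e-09) and -0.19 ± 0.07 at the bell stage (adjusted p = 0.021), and their difference was 0.60 ± 0.09 (adjusted p = 1.9e-06). Culture gave 15.7, 14.9 and 15.1 CPM in the lingual and 8.68, 9.55 and 9.79 CPM in the buccal part. The lingual level after culture and that in Bell-L differed by -0.002 ± 0.065 on the log2 scale (adjusted p = 0.98), which does not show that they are equal.

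In the uncultured germ, Dlx6os1 was higher on the side and at the stage where Dlx6 was lower. It was at 10.7, 11.0 and 10.4 CPM in Cap-L and 27.2, 26.5 and 26.95 CPM in Cap-B, with a buccal-over-lingual log2 fold change of 1.35 ± 0.06 (adjusted p = 4.5e-12), while Dlx5 and Dlx6 were lower on that side. At the bell stage it was at 49.5, 54.1 and 54.9 CPM in Bell-L and 70.0, 70.6 and 71.2 CPM in Bell-B, so that it rose by 2.31 ± 0.06 in the lingual (adjusted p = 4.4e-20) and 1.38 ± 0.05 in the buccal part (adjusted p = 1.1e-22). Cap-W had 35.4, 25.04 and 25.07 CPM and Bell-W 110.4, 87.8 and 71.0 CPM, a log2 fold change of 1.65 ± 0.20 (adjusted p = 0.0019) that was 1.98 without Cap-W replicate 1 and Bell-W replicate 3. In culture the side order turned: lingual libraries had 13.2, 12.4 and 12.4 CPM and buccal libraries 7.77, 7.53 and 7.09 CPM, a log2 fold change of -0.76 ± 0.08 (adjusted p = 6.4e-09). The side difference after culture was lower than that at the cap stage by -2.12 ± 0.10 (adjusted p = 5.4e-17), the change from cap stage to culture being -1.87 ± 0.06 in the buccal part and 0.24 ± 0.07 in the lingual part (adjusted p = 3.4e-23 and 0.0046, the second under the fold limit). By mean level, Bell-W overlapped Bell-B and Cap-W overlapped Cap-B, and Bell-L, Cap-L + 2D, Cap-L and Cap-B + 2D stood apart from their neighbours in the order.

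**Figure D2:**
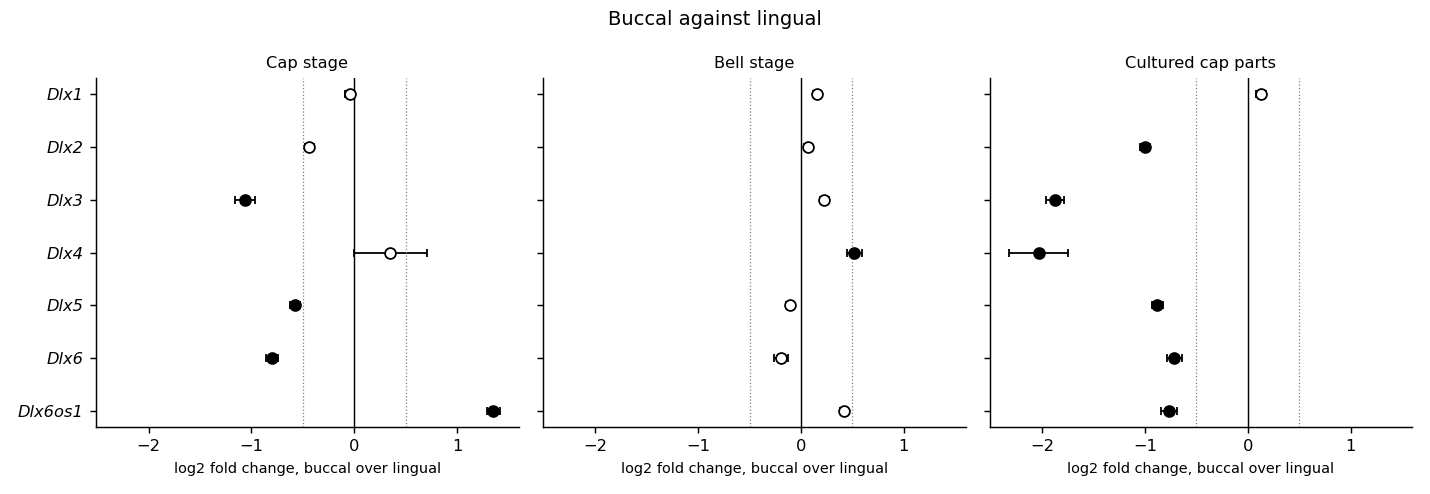
Log2 fold change of buccal over lingual for the 7 genes in the cap-stage, bell-stage and cultured parts, with SE; filled points passed an adjusted p of 0.05 and the fold limit of 0.5, drawn as dotted lines. Dlx6os1 is at 1.35, 0.42 and -0.76 in the 3 panels, and Dlx3 is at -1.06, 0.23 and -1.88.

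Within a library, the ratio of Dlx6os1 to Dlx6 per kb spanned more than that of Dlx5 to Dlx6. Dlx6os1 over Dlx6 was 0.106 in Cap-L, with a range of 0.105 to 0.106, and was 0.470 ± 0.019 in Cap-B and 0.238 ± 0.037 in Cap-W. It was 0.251 ± 0.003 and 0.242 ± 0.026 in the cultured lingual and buccal parts, whose ranges overlapped. At the bell stage it was 1.05 ± 0.06 in Bell-L, 1.60 ± 0.05 in Bell-B and 2.37 ± 0.08 in Bell-W, with no overlap between these groups. Dlx5 over Dlx6 was 2.56 ± 0.15 in Cap-L, 2.98 ± 0.17 in Cap-B, 2.85 ± 0.08 in Cap-L + 2D and 2.54 ± 0.17 in Cap-B + 2D, and rose to 4.61 ± 0.15 in Bell-L and 4.90 ± 0.22 in Bell-B. In Bell-W it was between 3.30 and 8.93, the highest in replicate 3.

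**Figure D3:**
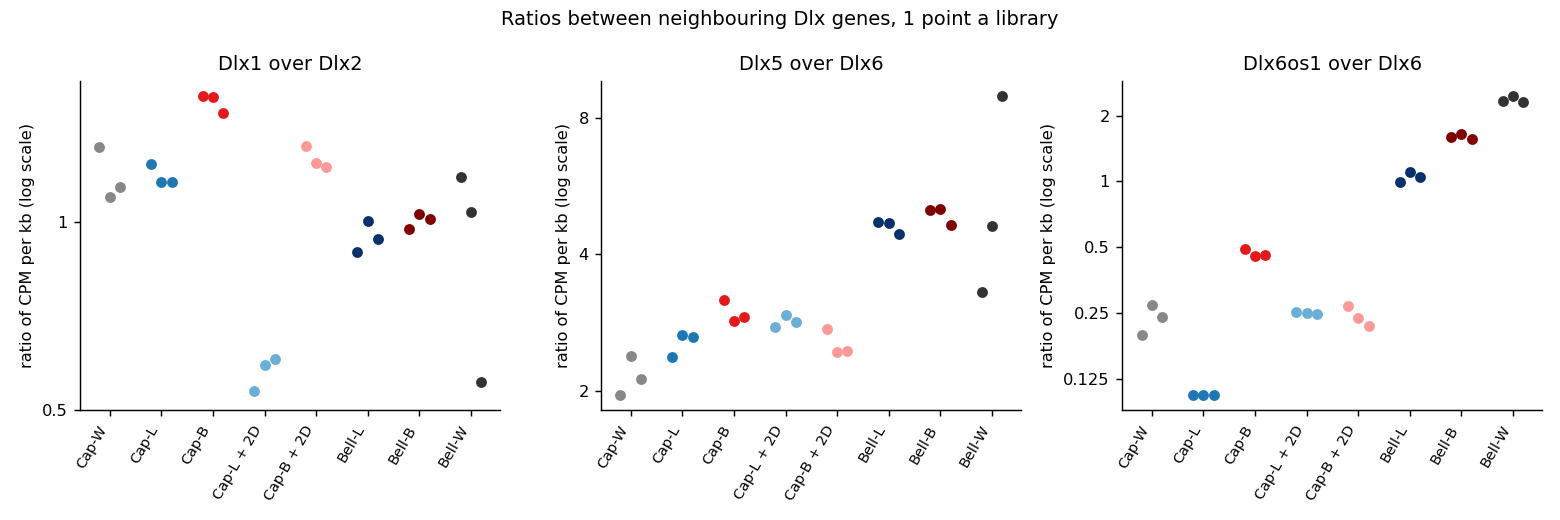
Ratios of CPM per kb of unshared exon within each library, on log axes, for Dlx1 over Dlx2, Dlx5 over Dlx6 and Dlx6os1 over Dlx6. The ratio of Dlx6os1 to Dlx6 goes from 0.106 in Cap-L to 2.37 in Bell-W, and Cap-L + 2D has the lowest mean Dlx1 over Dlx2 at 0.577.

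Per kb, the make-up of the 6 coding genes shifted with stage. Dlx1, Dlx2 and Dlx5 made up 28.99%, 24.5% and 30.1% of their summed level per kb in Cap-L, Dlx6 11.8%, Dlx3 4.49% and Dlx4 0.131%. In Bell-L these shares were 23.1%, 24.5%, 27.6%, 5.99%, 15.7% and 3.10%. Dlx3 and Dlx4 thus took a larger share of the family at the bell stage and Dlx6 a smaller one, with ranges that did not overlap between these groups. In Cap-L + 2D Dlx2 had the largest mean share, 36.3 ± 1.4%, as it did in Bell-W, 27.4 ± 1.8%. In Cap-B + 2D Dlx1 had the largest, 37.0 ± 1.2%, as it already did in uncultured Cap-B, 37.2 ± 0.7%. Dlx1 also had the largest mean share in Cap-W, 29.8 ± 0.7%, and in Bell-B, 24.5 ± 0.1%.

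Across the whole table, a gene was called when its log2 fold change exceeded 0.5 in size and its adjusted p was below 0.05. All 7 members passed the filter on low counts in every comparison. Between the sides of the cap-stage germ, 4 of the 7 members were called, against 17.5% of all genes tested. Dlx6os1 was higher in the buccal part, as were 10.4% of all genes, and Dlx3, Dlx5 and Dlx6 were lower there, as were 7.10%. The median log2 fold change of the members was -0.44, against -0.01 over all genes. Between the bell-stage sides 1 of 7 was called (12.9% of all genes), namely Dlx4, higher in the buccal part at 0.52 ± 0.07 (adjusted p = 1.5e-07), where 6.00% of all genes were higher and 6.88% lower. The members' median was 0.16, against 0.00. The Dlx4 call lay close to the fold limit: it was 0.50, 0.46 and 0.48 without Bell-L replicate 2, Bell-L replicate 3 or Bell-B replicate 3, and its adjusted p was 0.14 with all 24 libraries in 1 fit. Between the cultured sides 6 of 7 were called (25.1% of all genes), each lower in the buccal part, where 12.5% of all genes were lower and as many higher. Dlx1 was at 0.13 ± 0.05 there, and the members' median was -0.88, against 0.00.

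From the cap to the bell stage 4 of 7 members were called in the undivided germ (14.5% of all genes) and 4 of 7 in the lingual part (20.0%). In each, Dlx3, Dlx4 and Dlx6os1 were higher, as were 10.3% and 14.2% of all genes, and Dlx6 was lower, as were 4.21% and 5.78%. In the buccal part Dlx3, Dlx4 and Dlx6os1 were called, 3 of 7 (18.7% of all genes, 12.0% higher and 6.73% lower). Dlx2, at 0.49 ± 0.04 there (adjusted p = 2.7e-12), passed 0.5 without Bell-B replicate 2 (0.51). Medians of the members were 0.24, -0.02 and 0.49, against -0.03, 0.00 and 0.01 over all genes.

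After culture 5 of 7 members were called against the lingual cap part (35.4% of all genes), Dlx3 and Dlx4 higher (19.6%) and Dlx1, Dlx5 and Dlx6 lower (15.9%). Against the buccal cap part 4 of 7 were called (34.5%), and Dlx1, Dlx5, Dlx6 and Dlx6os1 were lower (16.6%, with 17.9% higher). The buccal Dlx4 difference of -0.66 ± 0.35 (adjusted p = 0.093) became -1.05 (adjusted p = 0.017) without Cap-B + 2D replicate 3. Set against the bell-stage part of its own side, the cultured lingual part had 5 members called, each lower (31.2% of all genes, 16.8% lower and 14.4% higher), and the cultured buccal part had all 7 lower (31.8%, with 16.3% lower and 15.5% higher). In the buccal part Dlx4 was at -5.36 ± 0.16 (adjusted p = 2.0e-24), Dlx6os1 at -3.25 ± 0.05 (adjusted p = 1.8e-31) and Dlx3 at -3.14 ± 0.07 (adjusted p = 1.7e-27). Dlx6, at -0.52 ± 0.07, came to -0.47, under the limit, without Cap-B + 2D replicate 1. The members' medians were 0.08 and -0.78 against the cap stage and -0.70 and -1.47 against the bell stage, beside -0.03, -0.02, -0.01 and -0.01 over all genes. These comparisons share libraries, so their values stand side by side only.

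Libraries that do not overlap between 2 groups were common in the whole table, which is the background for such statements about the members. The share of all genes was 52.4% for the sides at cap stage, 45.5% at bell stage and 59.1% in culture. It was 36.8%, 55.9% and 55.4% between the stages in the undivided, lingual and buccal mesenchyme, 67.5% and 69.0% between cap stage and culture, and 67.3% and 66.8% between bell stage and culture.

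**Figure D4:**
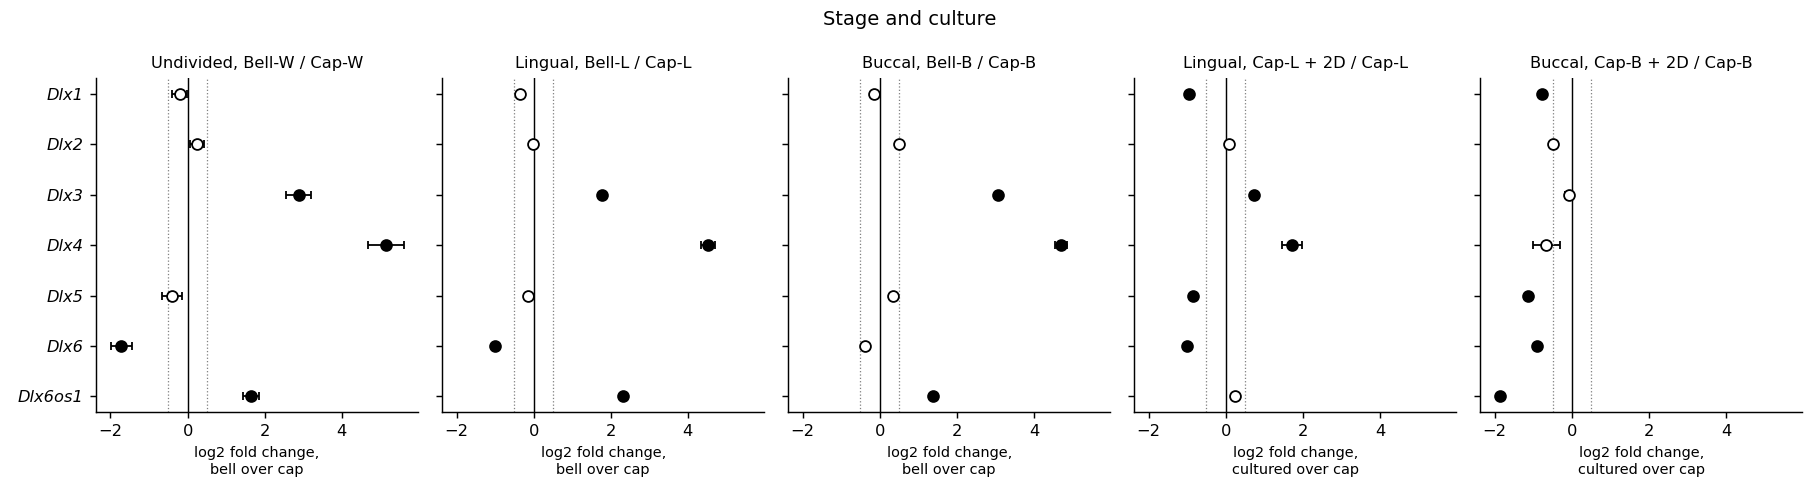
Log2 fold change of bell over cap in the undivided, lingual and buccal mesenchyme and of cultured over cap in the lingual and buccal parts, with SE; filled points passed an adjusted p of 0.05 and the fold limit of 0.5 (dotted lines). Dlx4 is at 5.14, 4.53 and 4.70 across the stage panels, and Dlx6os1 is at 0.24 and -1.87 in the culture panels.

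The side difference itself changed between the cap and bell stages, at an adjusted p under 0.05, for 6 of 7 members (32.5% of all genes, 14.5% toward buccal and 18.0% toward lingual). Between cap stage and culture it also changed for 6 of 7 (35.5%, with 16.0% toward buccal and 19.5% toward lingual). With the stage, Dlx1, Dlx2, Dlx3, Dlx5 and Dlx6 moved toward the buccal side and Dlx6os1 toward the lingual. With culture, Dlx2, Dlx3, Dlx4, Dlx5 and Dlx6os1 moved toward the lingual side and Dlx1 toward the buccal; Dlx4 changed by -2.39 ± 0.49 (adjusted p = 2.6e-04). The Dlx1 change in culture, 0.17 ± 0.06 (adjusted p = 0.038), was above 0.05 without any of 6 libraries (Cap-L replicate 1, Cap-B replicates 2 and 3, Cap-L + 2D replicates 1 and 3, and Cap-B + 2D replicate 1), where the values were between 0.14 and 0.17. With all 24 libraries in 1 fit, which takes in the more variable undivided libraries, 3 members were called for each change. The adjusted p was then 0.48, 0.18 and 0.092 for Dlx1, Dlx5 and Dlx6 with the stage and 0.50, 0.085 and 0.50 for Dlx1, Dlx3 and Dlx5 with culture.

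Other genes of jaw patterning were read beside the Dlx genes. Of 12 lower-jaw transcription factors 10 were tested. In the buccal against the lingual part, 1 was higher and 6 lower at cap stage, 2 higher and 3 lower at bell stage and 1 higher and 7 lower in culture, with medians of -0.57, -0.11 and -1.35. Of all genes tested, 10.4%, 6.00% and 12.5% were higher and 7.10%, 6.88% and 12.5% lower in these comparisons. Hand2, a basic helix-loop-helix factor downstream of endothelin, was at 7.02 to 7.88 CPM in Cap-L and 0.361 to 0.503 CPM in Cap-B, at 1.87 to 3.10 CPM in Bell-L and 0 to 0.166 CPM in Bell-B, and at 10.5 to 12.4 and 0.665 to 0.852 CPM in the cultured parts (adjusted p = 1.2e-12, 7.5e-15 and 3.7e-18). Gbx2, a homeobox gene, had 0 to 0.0278 CPM in Cap-L against 0.389 to 0.544 CPM in Cap-B (adjusted p = 1.6e-05) and 0.0277 to 0.0703 against 0.538 to 0.802 CPM in the cultured parts (adjusted p = 8.6e-07). Over all libraries, 3 reads were 0.0764 to 0.1458 CPM before TMM scaling. Gbx2 in Cap-L and Cap-L + 2D was below this level, and Hand2 in Bell-B was near it. Msx2 was lower in the cultured buccal part (-2.83 ± 0.12, adjusted p = 9.6e-17) and Alx4 in Bell-B than in Bell-L (-1.51 ± 0.06, adjusted p = 7.1e-23); both are homeobox genes.

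Of 5 upper-jaw genes, 3, 2 and 3 were higher in the buccal part at cap stage, at bell stage and in culture, where 1, the Notch ligand Jag1, was lower (-0.95 ± 0.04, adjusted p = 3.5e-17). Nr2f1, an orphan nuclear receptor, was at 3.33 ± 0.06 (adjusted p = 5.1e-18) and 2.24 ± 0.06 (adjusted p = 6.4e-31) in log2 fold change of buccal over lingual at the 2 stages. Of 7 upstream genes (the ligand Edn1, its processing enzyme Ece1, its receptor Ednra, the G proteins Gnaq and Gna11, Mef2c and Bmp4), 1 was higher and 1 lower buccally at cap stage, 2 were higher at bell stage, and 2 were higher and 1 lower in culture, with medians of 0.05, 0.08 and -0.06. At cap stage the higher gene was Ednra (1.22 ± 0.05, adjusted p = 5.4e-13) and the lower Mef2c (-0.61 ± 0.05, adjusted p = 1.6e-08). Ednra was thus higher on the side where Dlx5 and Dlx6 were lower, and a link was not tested. It was at 0.68 ± 0.03 at bell stage (adjusted p = 3.5e-20) and at -0.16 ± 0.04 in culture (adjusted p = 9.3e-04, under the fold limit). The shares of all genes for both lists are those given with the lower-jaw factors.

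Between the stages, 2 lower-jaw factors rose and 4 fell in the undivided germ, 3 and 6 did in the lingual part and 4 and 3 in the buccal part. Of all genes tested, 10.3%, 14.2% and 12.0% rose and 4.21%, 5.78% and 6.73% fell in these comparisons. Msx2 rose in the lingual (2.63 ± 0.10, adjusted p = 5.5e-17) and buccal part (3.10 ± 0.11, adjusted p = 2.2e-21). Alx4 fell by 1.86 in the lingual part and by 3.43 in the undivided germ on the log2 scale (adjusted p = 2.7e-20 and 0.0021), Nr2f1 fell by 1.99 in the undivided germ (adjusted p = 7.7e-04) and Pou3f3, an upper-jaw gene, fell by 1.66 in the buccal part (adjusted p = 8.0e-26). Hand2 was at 3.12 to 34.8 CPM in Cap-W and 0 to 0.0323 CPM in Bell-W (adjusted p = 0.0040). After culture Msx2 (2.10 ± 0.11), Ednra (1.17 ± 0.05) and Nr2f1 (1.05 ± 0.07) were higher than in Cap-L, and Edn1 (1.91 ± 0.19) and Mef2c (1.25 ± 0.04) were higher and Msx1 lower (-1.23 ± 0.04) than in Cap-B (edgeR adjusted p = 2.3e-10 or less). Against the bell-stage parts, Hand2 (2.14 ± 0.12 and 3.37 ± 0.48) and Alx4 (1.89 ± 0.05 and 1.66 ± 0.06) were higher in the cultured lingual and buccal parts, and Msx2 was lower in the buccal (-3.31 ± 0.11). Hand2 was near the level of 3 reads a library in Bell-B and below it in Bell-W. The side difference of Pou3f3 changed by -2.38 ± 0.07 with stage, and those of Msx2, Ednra and Mef2c by -2.32 ± 0.22, -1.38 ± 0.06 and 1.37 ± 0.06 with culture. Of the 18 expressed genes nearest to the pairs on their chromosomes, 2, 1 and 2 were called between the sides at cap stage, at bell stage and in culture, among them Itga3, an integrin subunit 43318 bases before Dlx3, at -0.81, -0.52 and -0.73. Of all genes tested, 17.5%, 12.9% and 25.1% were called in these comparisons, and the counts among the 18 were not above these shares.

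Markers of other cell types moved with these groups, and their part in the Dlx results was not tested. The 10 epithelial genes (among them Epcam, Cdh1, Krt5, Krt14, Trp63, Esrp1 and Sfn) summed to 624 to 697 CPM in Cap-L, 435 to 457 in Cap-B, 1040 to 1089 in Bell-L, 715 to 745 in Bell-B, 476 to 516 in Cap-L + 2D and 95.4 to 96.5 in Cap-B + 2D. They were lower in the buccal part for 7 of 10 genes in the cap-stage germ, 6 in the bell-stage germ and 8 in culture. Of all genes tested, 7.10%, 6.88% and 12.5% were lower there. Dlx2 and Dlx3 were low in the same cultured buccal libraries. Bell-B had a lower epithelial sum than Bell-L and more Dlx3, and Cap-L + 2D had a lower sum than Cap-L and more Dlx3. The sum of a separate list of 5 stratified epithelial genes went the other way in lingual culture. Against Cap-L, 3 of these genes were higher and 1 was lower, where 19.6% of all genes tested were higher and 15.9% lower. The rise was largest in Krt13 and Krt4, from means of 0.550 and 0.255 CPM to 112 and 58.6 CPM. This list summed to 14.4 to 15.2 CPM in Cap-L and 179 to 188 in Cap-L + 2D. At the bell stage its sums were 114 to 128 CPM in Bell-L, 60.1 to 64.2 in Bell-B and 33.2 to 224 in Bell-W. Bell-W replicates 1 and 2, with epithelial sums of 725 and 642 CPM, had 42.1 and 58.0 CPM of Dlx3, against 11.7 to 14.9 CPM in Cap-L, whose sums were 624 to 697.

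**Figure D5:**
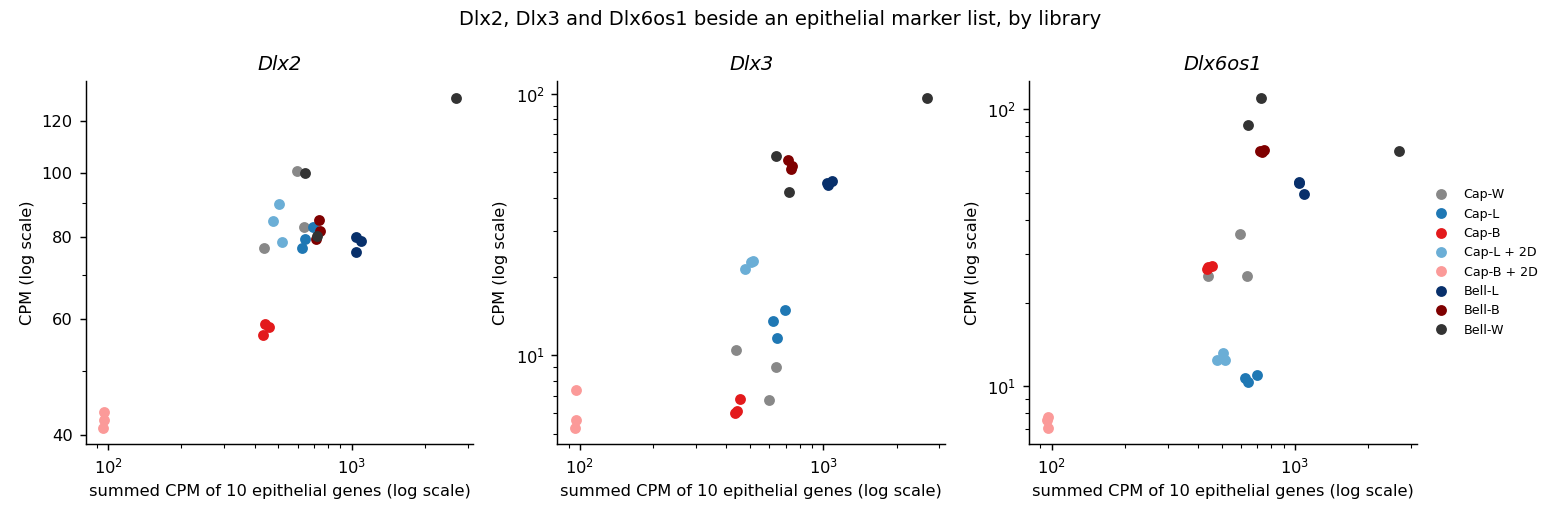
CPM of Dlx2, Dlx3 and Dlx6os1 against the summed CPM of 10 epithelial genes in each library, on log axes, by group. Cap-B + 2D lies at the left with 95.4 to 96.5, and Bell-W replicate 3 at the right with 2679, where Dlx2 and Dlx3 were at 130.2 and 96.7 CPM.

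The other lists differed too. Muscle genes (Myod1, Myog, Myf5, Myh3 and Actc1) summed to 7.18 to 11.2 CPM in Cap-W, 9.33 to 10.3 in Cap-L, 160 to 178 in Cap-B, 84.5 to 91.7 in Bell-L, 752 to 771 in Bell-B, 2.51 to 8.11 in Bell-W, 236 to 251 in Cap-L + 2D and 3105 to 3276 in Cap-B + 2D. All 5 were higher in culture than at the cap stage on both sides, and all 5 were higher in the buccal than the lingual part at either stage and in culture. Of all genes tested, 19.6% and 17.9% were higher in lingual and buccal culture. The shares higher buccally were 10.4% at cap stage, 6.00% at bell stage and 12.5% in culture. Osteoblast genes summed to 2128 to 2164 CPM in Cap-L + 2D against 462 to 478 in Cap-B + 2D, to 961 to 982 in Cap-L against 444 to 461 in Cap-B, and to 727 to 750 in Bell-L against 550 to 556 in Bell-B. They summed to 307 to 398 CPM in Cap-W and 541.7 to 746.5 in Bell-W. Cap-W thus lay below both of its parts for these genes, as Bell-W did for the muscle genes, so an undivided group need not lie between its parts. Cartilage genes were at 25.8 to 268 CPM over all libraries, endothelial genes at 129 to 442, macrophage genes at 14.8 to 135, Schwann cell genes at 3.49 to 34.0, neuronal genes at 13.2 to 115, stratified epithelial genes at 5.76 to 224 and erythroid genes at 15.7 to 26.2 in the cultures and 1442 to 2748 elsewhere. The neuronal maximum was in Bell-W, whose median was 20.7 CPM, and the highest neuronal sum in another group was 33.25 CPM, in Cap-B + 2D.

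Across the 24 libraries, members resembled different genes. Ranked by Pearson's r of log2 CPM over 14044 genes, a description over libraries that share stage, side and culture, Dlx3 was most like Sostdc1 (r = 0.97), Pdlim2 and Cntnap1, and Dlx4 like Lmo1 (0.95), Pdlim2 and Plppr1. Dlx2 was most like Ppp1r14c (0.95), Sfn and Slc25a13, and Dlx5 like Impdh2 (0.94), Grhl2 and Esrp1; Sfn and Esrp1 are on the epithelial list above. Among the genes most like Dlx6 were Cnksr2 (0.95) and Rwdd4a, and among those most like Dlx6os1 were Cox4i2 (0.96) and Ralgps2. Dlx1 was most like Rbmx (0.97), Tra2a and Srsf7. Among the members, r was 0.94 for Dlx3 with Dlx4, 0.37 for Dlx1 with Dlx2, 0.66 for Dlx5 with Dlx6 and -0.12 for Dlx6 with Dlx6os1.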

How the data were processed

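Bulk RNA of 24 libraries of tooth germ mesenchyme was sequenced, and groups were taken from the titles given to the libraries. The deposited file holds whole-number read counts per gene which, per the file header, were made with featureCounts 2.0.0 on paired reads over exons of the Ensembl 107 GRCm39 annotation, without strand and leaving out reads of more than 1 gene or place. The submitters' processing notes also name FastQC 0.12.1, Trimmomatic 0.39, Bowtie 1.2.3, Subread 2.0.3 and DESeq2 1.40.2, and the study's methods name another trimmer and aligner, so the aligner behind the counts is unclear. The notes name a SMARTER kit and the methods a stranded TruSeq kit. Totals were 20581720 to 39266497 counts a library. Symbols came from the Ensembl 116 annotation and matched 56017 of 56748 genes.

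Each comparison was fitted with edgeR 4.0.16 (quasi-likelihood test, TMM scaling, filterByExpr) in R 4.3.3 over the groups compared, with the 3 lingual groups in 1 fit, the 3 buccal groups in 1 fit and both factors in the 2 interaction fits. P-values were adjusted by Benjamini-Hochberg over all genes tested, and genes were called at a log2 fold change above 0.5 in size with an adjusted p below 0.05 (interactions: by the adjusted p alone). Levels are CPM with TMM over all 24 libraries. The methods were tested on simulated counts. The members, gene lists (upstream, lower-jaw and upper-jaw genes, dental mesenchyme and 10 other cell types) and alternatives were chosen with earlier results of these data known. Named list genes were the up to 3 called genes of the jaw lists with the largest fold change in a comparison. The upstream genes called between the cap-stage sides were named as well. Some genes that these rules and lists hold are not reported here by name. Alternatives were RLE scaling, DESeq2 1.42.0, other count filters, all libraries in 1 fit, a replicate block, leaving out the 100 most abundant genes, no fold limit and leaving out each library.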

Additional observations from a re-analysis of the deposited data

Results flagged for a closer look

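For 12 results the difference between the lingual and buccal parts changed with stage or culture by a direct test of the change (edgeR's interaction test, adjusted p under 0.05). From the cap to the bell stage the buccal-over-lingual log2 difference changed by 0.19 for Dlx1, 0.50 for Dlx2, 1.29 for Dlx3, 0.47 for Dlx5, 0.60 for Dlx6 and -0.94 for Dlx6os1. From the cap stage to culture it changed by 0.17 for Dlx1, -0.57 for Dlx2, -0.82 for Dlx3, -2.39 for Dlx4, -0.30 for Dlx5 and -2.12 for Dlx6os1. Groups of 3 libraries were too small to test single libraries as outliers.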

How the results depend on the processing

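Of 668 values of single genes recomputed under other settings, 632 kept their direction and side of the threshold, 17 passed it newly, 13 lost it and 6 turned direction. The Dlx6 difference between the cultured and bell-stage lingual parts, near 0, turned from -0.002 to 0.013 with RLE scaling, 0.014 with DESeq2, 0.014 without the 100 most abundant genes, 0.022 with no filter and 0.0015 with all 24 libraries in 1 fit. Dlx1 in the undivided germ turned from -0.21 to 0.15 without Cap-W replicate 1 and Bell-W replicate 3. None of the turned values was called. Counts of members called moved over 1.5 times in these cases: with no fold limit to 6 between the bell-stage sides and 7 in the buccal stage comparison, with all 24 libraries in 1 fit to 0 between the bell-stage sides, 3 for the stage interaction and 3 for the culture interaction, and with a fold limit to 3 for the stage interaction. The cause was not tested.

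Leaving out each library gave 0 to 1 members called between the bell-stage sides, 4 to 4 at the cap stage, 6 to 6 in culture, 4 to 4 for the undivided and lingual stage comparisons, 3 to 4 for the buccal one, 5 to 5 for lingual culture, 4 to 5 for buccal culture, 5 to 5 and 6 to 7 against the bell stage (lingual, buccal), 6 to 6 for the stage and 5 to 6 for the culture interaction. Dlx1 in the undivided germ ranged from -0.33 to -0.02, Dlx2 in the lingual stage comparison from -0.054 to 0.0033, Dlx6 cultured against bell lingual from -0.025 to 0.028, Dlx3 in buccal culture from -0.22 to 0.016 and Dlx4 in the stage interaction from -0.17 to 0.44. Replicate numbers did not pair the libraries consistently: correlations of their deviations were between -0.47 and 0.49 over comparisons. In 2 of 10 comparisons, the undivided and the buccal stage comparison, every library correlated best with its own number. With 3 libraries a group, this check cannot show whether libraries share a litter or a batch. With the replicate block, 4 members were called between the cap-stage sides, as without it, and no call of a member changed. Over all alternatives, leaving out each library included, the median shift of the log2 fold changes of all genes was -0.03 to 0.04. With RLE scaling it was -0.005 to 0.017. Dlx4 at 3 to 32 counts a cap-stage library is the member the depth limits most.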

Other observations

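Dlx6os2, another transcript on the strand opposite Dlx6, was counted at 0.0697 to 0.731 CPM over the 24 libraries and was below the count filter in every comparison.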
